A study of Mus musculus with 4 samples.

Results

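The clustered protocadherins are cadherin-type adhesion proteins of the neuronal surface, encoded by 3 neighbouring gene clusters (alpha, beta and gamma) on mouse chromosome 18. Each variable exon of the alpha and gamma clusters has a promoter of its own and is joined by splicing to constant exons shared by its cluster, and every beta gene is a single exon with its own promoter. A neuron uses only a few of these promoters, picked largely at random, and methylation of a promoter is known to go with its silencing. The C-type genes at the downstream end of the alpha cluster (Pcdhac1, Pcdhac2) and of the gamma cluster (Pcdhgc3, Pcdhgc4, Pcdhgc5) are used more generally across neurons, and the variable genes upstream of them are the stochastically chosen ones.

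DNA methylation was measured at CpG islands by methylated DNA immunoprecipitation (MeDIP), in which an antibody against 5-methylcytosine pulls down methylated fragments. All array probes of the design whose mm9 position fell in the protocadherin window of chromosome 18 were taken, with no measured value used in the choice. This gave 100 probes of the 88737 on the array, from chr18:37091756 to 37967176, with 46 in the alpha stretch, 2 in the beta stretch and 52 in the gamma stretch. They formed 30 runs, a run being neighbouring probes with gaps of at most 1000 bp, and 13 runs held 3 probes or more. Runs are numbered along the chromosome within each stretch. RefSeq lists 14 alpha, 22 beta and 22 gamma protocadherin genes, so the array hardly sampled the beta cluster, for which only 2 single probes were present.

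Offspring were 1 day old when whole-brain DNA was taken, and it was not sorted by cell type. Their strain label is C57BL/6, and the dams were C57BL/6J. Dams of the TiO2-H groups had received 100 ug per mouse of titanium dioxide nanoparticles (TiO2-NP) into the trachea, and dams of the Sham groups had received the vehicle. The sample names give gestational day 14 for the dosing and the treatment protocol gives gestational day 10.5. Males and females of Sham and TiO2-H litters made 4 groups, and each was 1 pool on 1 array, made of 2 offspring from each of 5 dams (Sham) or 6 dams (TiO2-H). No comparison between groups therefore has a replicate, the number of arrays limits the precision, and the spread between pools of one group cannot be estimated.

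Both TiO2-H arrays went against their sex labels. Set against autosomal probes, the median X-linked input signal was -0.75 (log2) in Sham male and 0.03 in Sham female, but 0.03 under the label TiO2-H male and -0.74 under the label TiO2-H female. The arrays labelled male and female are therefore called TiO2-H array M and TiO2-H array F, after their labels only, and comparisons with the labels crossed are given as well. Where 4 values are given in array order, they are those of Sham male, Sham female, TiO2-H array M and then TiO2-H array F. The Sham male array and TiO2-H array M shared a slide, as did the other two, so that slide and sex label cannot be told apart. The MeDIP channel (Cy5) exceeded background clearly at 51.2%, 59.4%, 25.3% and 33.0% of all probes in array order. Detected below means that the scanner software had marked a signal as well above background.

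The files pair probes with positions, not with genes. A probe list of the study pairs 8 of the 100 probes with 6 symbols, matched here by position. The study cites that list for its probes with differential methylation in males. In the male comparison described further on, the 8 probes had folds of 0.89 to 1.35, none of them past the limits used there. Folds here are set relative to each array's autosomal median, whereas the study's methods name normalization in Agilent Genomic Workbench. The study's own folds for these probes are not set beside them, so this is no check of its list. The list places Pcdha11 on run alpha 11, Pcdha12 on alpha 14, Pcdhac2 on alpha 16, Pcdhga3 on gamma 2, Pcdhga11 on gamma 8 and Pcdhga12 on gamma 11. The distances to start sites in the same list put the start of Pcdha12 at run alpha 13. They put that of Pcdhga3 at run gamma 3 and that of Pcdhga11 at run gamma 9. The starts of Pcdha11 and Pcdhga12 fell within 100 bp of none of the runs, whereas that of Pcdhac2 fell within its own run. A run named after a symbol therefore holds a probe that the list gives to that gene, and not always its start. In the RefSeq gene order only Pcdhac1 lies between Pcdha12 and Pcdhac2, which is where run alpha 15 sits. Pcdhgc3, Pcdhgc4 and Pcdhgc5 follow Pcdhga12, and the files do not say which of them run gamma 12 belongs to. Run gamma 1 lies before the first named gamma run, in the neighbourhood of Slc25a2 and Taf7, and may not be a protocadherin island.

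The level of a probe is the log2 ratio of MeDIP to input signal, set relative to the autosomal median of its own array, which is therefore 0. A ratio above 0 means more antibody pull-down than at the median probe. It is not the percentage of methylated copies, since pull-down also depends on the number of CpGs in a fragment, and in whole brain a larger share of cells with the mark and more marked copies per cell cannot be told apart. Of the 100 probes, 62.0% (95% Wilson interval 52.2% to 70.9%), 71.0% (61.5% to 79.0%), 77.0% (67.8% to 84.2%) and 72.0% (62.5% to 79.9%) lay above the autosomal median in array order. These intervals cover counting of probes only, and neighbouring probes can share DNA fragments. The median protocadherin level was 0.26, 0.60, 0.59 and 0.55 in the same order of arrays. Among the 2504 other probes of chromosome 18, 48.6% to 50.7% lay above the autosomal median. In the 4 Hox clusters, developmental gene clusters that are also rich in CpG islands, the share of 428 probes was 40.7% to 47.4%.

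Many protocadherin probes gave a dim input signal, and ratios were higher where the input was dimmer. Input (Cy3) was well above background on all 4 arrays for 88 of the 100 probes, compared with 93.7% of autosomal probes. Protocadherin probes were longer than usual, with 17.0% at 55 to 60 bases against 6.69% of autosomal probes, and 8 of the 12 probes without readable input were of that length. Where Cy5 was undetected, the ratio mainly followed the input: across the 76 such protocadherin probes on TiO2-H array M, Pearson's r between level and input was -0.86, a description over probes of one array. It was -0.84 for Sham male, -0.83 for Sham female and -0.76 for TiO2-H array F. The highest level of all, 4.61 on TiO2-H array M at chr18:37171684-37171743 in run alpha 12, came from a probe whose log2 input lay at -5.35 relative to the autosomal median and whose Cy5 was detected on 0 arrays. Levels below are therefore given for the 88 probes with readable input, a restriction chosen after the values had been seen. Among these, the shares above the autosomal median were 58.0%, 68.2%, 73.9% and 68.2% in array order, against 46.7% to 48.5% of 80478 autosomal probes. The restriction acts on input only. Cy5 was detected at 45, 59, 24 and 29 of the 88 in array order, and at 54.6%, 62.7%, 26.3% and 35.1% of the autosomal ones. Of all protocadherin probes above the autosomal median, 25 of 62, 20 of 71, 53 of 77 and 44 of 72 had undetected Cy5. Most levels above 0 on the TiO2-H arrays were therefore signals under detection.

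**Figure D1:**
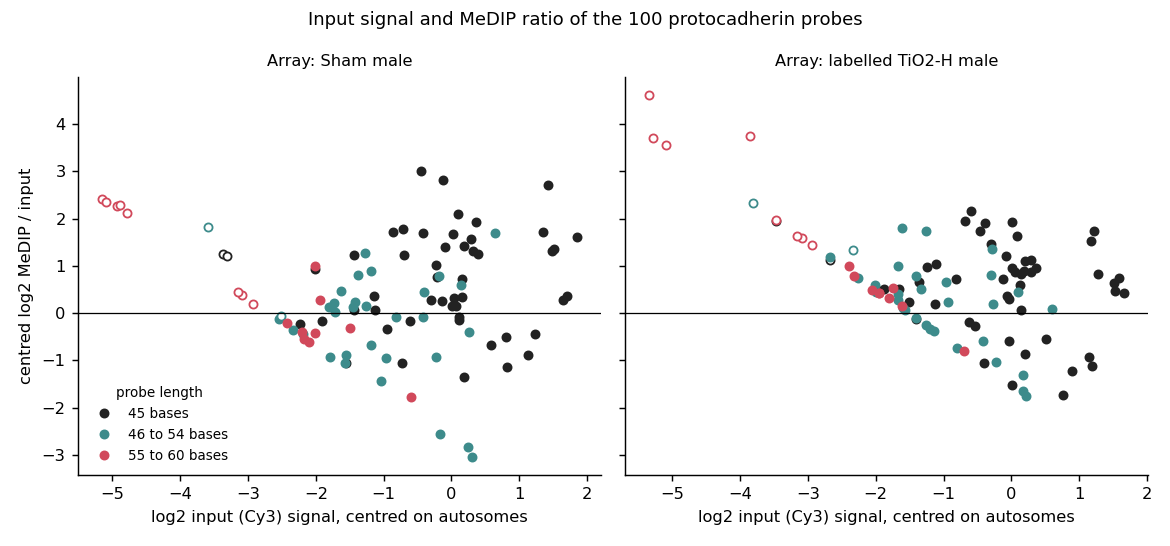
Level (centred log2 MeDIP over input, y axis) of the 100 protocadherin probes against their input signal (log2 Cy3 centred on autosomes, x axis) on the Sham male array and TiO2-H array M; colours give probe length and open points are the 12 probes without readable input on all 4 arrays. The lower edge of each cloud is a falling diagonal, where the level rises as the input falls, and the open points of 55 to 60 bases reach 4.61 at an input of -5.35.

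The high levels sat in the upstream part of each cluster. The division used here, at the Pcdha12 run and at the Pcdhga12 run, follows gene order but was made after the values had been seen, so it is a description without a test. Upstream of and including the Pcdha12 run, the alpha stretch held 29 probes in 14 runs, the neighbourhood of the stochastically chosen alpha genes. Of the 27 with readable input, 77.8% (95% Wilson interval 59.2% to 89.4%), 100% (87.5% to 100%), 96.3% (81.7% to 99.3%) and 96.3% (81.7% to 99.3%) were above the autosomal median in array order. The 2 alpha runs beyond Pcdha12, with 17 probes, were at 29.4% (13.3% to 53.1%), 29.4% (13.3% to 53.1%), 47.1% (26.2% to 69.0%) and 41.2% (21.6% to 64.0%) in the same order. The median level of the upstream probes exceeded that of the probes beyond Pcdha12 by 1.66, 1.31, 0.94 and 1.37, a mean difference of 1.32 ± 0.30 (SD, n = 4 arrays). The 4 arrays, exposed or not, gave the same direction, for a division that had been drawn from these same values.

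The gamma cluster had the same order with a smaller step. Its 28 readable probes up to and including the Pcdhga12 run were above the autosomal median at 64.3% (45.8% to 79.3%), 78.6% (60.5% to 89.8%), 78.6% (60.5% to 89.8%) and 75.0% (56.6% to 87.3%) in array order. The 14 probes of run gamma 12, where the C-type gamma genes follow, were at 35.7% (16.3% to 61.2%), 28.6% (11.7% to 54.6%), 50.0% (26.8% to 73.2%) and 28.6% (11.7% to 54.6%). The medians differed by 0.52, 1.01, 0.50 and 0.78, a mean of 0.70 ± 0.24 (SD, n = 4 arrays).

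**Figure D2:**
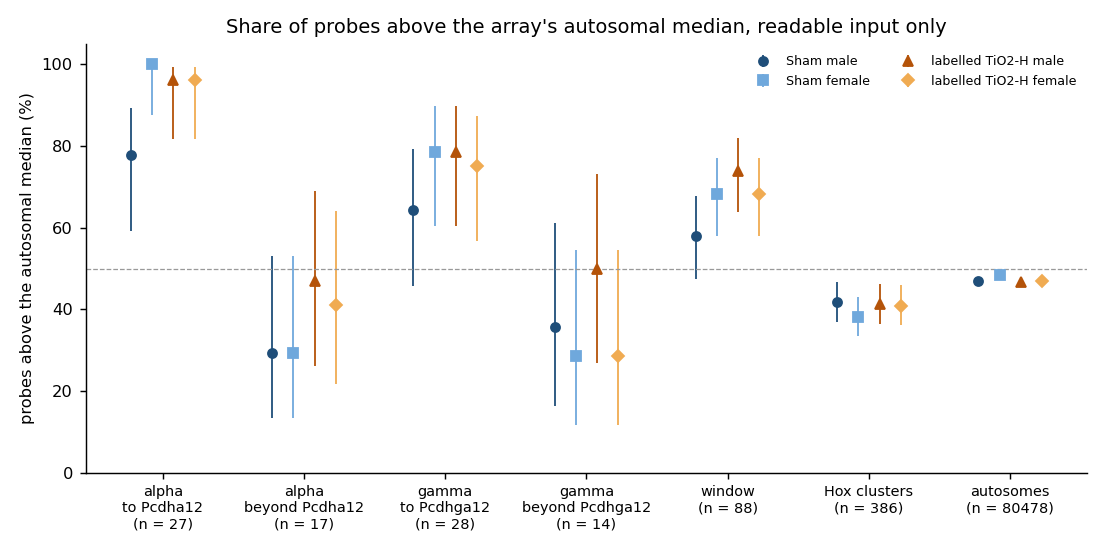
Share of probes above the array's autosomal median (y axis, %) among probes with readable input in each stretch of the protocadherin window, in the whole window, in the Hox clusters and on all autosomes; bars are 95% Wilson intervals over probes and symbols are the 4 arrays. The alpha probes up to Pcdha12 lie between 77.8% and 100% and those beyond it between 29.4% and 47.1%.

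The step was also present among probes with a comparable signal. Restricted to probes of 45 bases with readable input, 16 of 17 upstream alpha probes were above the autosomal median on the Sham male array and 17 of 17 on each of the other 3 arrays. For such autosomal probes the share was 53.3%, 52.2%, 47.2% and 52.9% in array order. Of the 8 such probes beyond Pcdha12, 3 were above it on the Sham female array and 4 on each other array. In the gamma stretch, 12 to 14 of 15 upstream probes and 3 to 4 of 9 probes of gamma 12 were above it. With input no more than 1 log2 unit below the autosomal median on every array, 19 of 19 upstream alpha probes were above the autosomal median on the Sham female array and both TiO2-H arrays, and 17 of 19 on the Sham male array. Beyond Pcdha12 it was 5 or 6 of 13 on each array. In the gamma stretch it was 10, 12, 8 and 11 of 13 upstream probes in array order, and 1, 3, 1 and 2 of 7 in gamma 12. Over autosomal probes within this input limit the share was 48.2%, 50.6%, 40.3% and 47.4%. The median input of the upstream and downstream alpha probes was -0.18 and 0.14 on the Sham male array.

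Run size moved with the level. The upstream alpha runs held 1 to 3 probes and spanned 45 to 569 bp, whereas the 2 runs beyond Pcdha12 held 6 and 11 probes over 700 and 1239 bp, and gamma 12 held 14 probes over 1635 bp. On all autosomes, 59.4% to 65.9% of readable probes in runs of 1 were above the autosomal median, 56.3% to 59.7% in runs of 2 and 50.9% to 53.9% in runs of 3, against 45.3% to 46.8% in runs of 6 or more. The 8 readable protocadherin probes in runs of 1 were above it at 75.0% to 100% and the 10 in runs of 2 at 90.0% to 100%. The 18 in runs of 3 were above it at 77.8%, 100%, 94.4% and 94.4% in array order. The 46 protocadherin probes in runs of 6 or more were at 39.1%, 43.5%, 54.3% and 43.5%, near the autosomal share for such runs. Small runs thus read higher than large ones on all autosomes as well, and the part of run size in the protocadherin step was not tested.

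**Figure D3:**
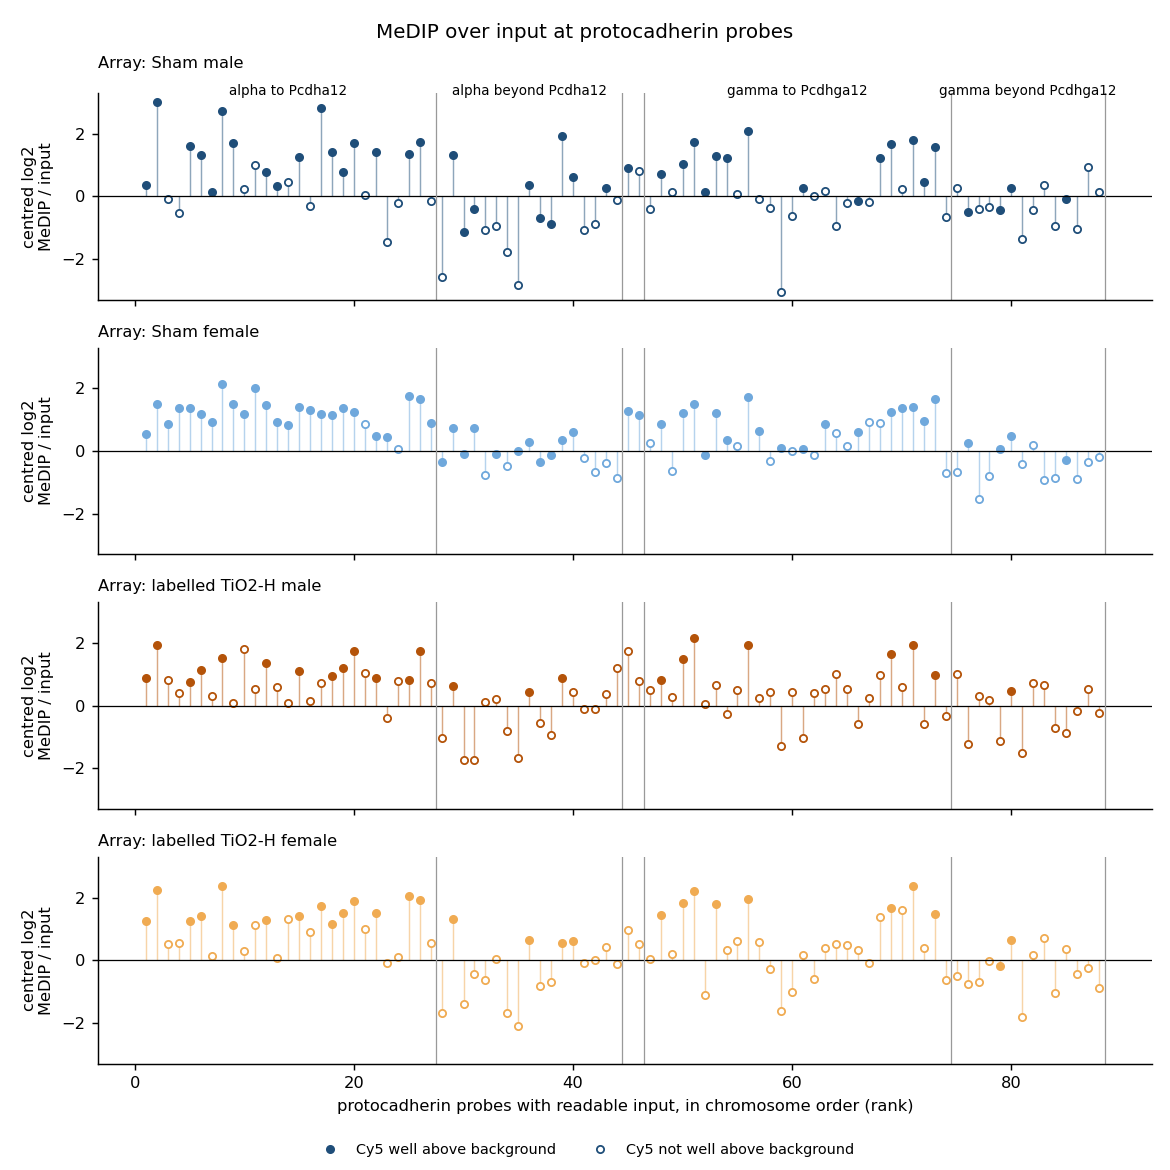
Level (centred log2 MeDIP over input, y axis) of the 88 protocadherin probes with readable input in chromosome order (x axis, rank) on each of the 4 arrays; filled points had Cy5 well above background on that array, and vertical lines divide the stretches named at the top, the narrow one in the middle holding the 2 beta probes. The points up to Pcdha12 stand above 0 on nearly every array, while those beyond it and at the right end, in gamma 12, lie on both sides of 0.

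Among the alpha runs upstream, alpha 14, which the list gives to Pcdha12, had the highest Sham mean of the protocadherin runs with 3 or more probes. Its median level was 1.36, 1.66, 0.82 and 1.93 in array order. The mean of both Sham arrays lay above 96.0% of the 13091 autosomal runs with 3 or more probes. This rank and those of other runs below count all probes, readable or not. With readable input only, over 12659 autosomal runs, it was 96.2%. The Pcdha12 probe itself, at chr18:37181762-37181806 and annotated by the list as inside the gene, gave 1.73, 1.66, 1.73 and 1.93 in that order, all with Cy5 detected. Just upstream, run alpha 13 (chr18:37179910-37180478), where the list's distances place the start of Pcdha12, was lower, with medians of -0.21, 0.45, 0.78 and 0.10. Only 1 of its 3 probes had Cy5 well above background on all 4 arrays. The median of alpha 14 was thus higher than that of alpha 13 on all 4 arrays, though nearly level on TiO2-H array M. Cy5 was detected at 1, 2, 1 and 1 of the 3 probes of alpha 13 in array order. Its medians on Sham male and both TiO2-H arrays were therefore signals under detection. Its probe detected on all arrays had 1.41, 0.48, 0.88 and 1.52. That was above the alpha 14 median on Sham male and TiO2-H array M, and below it on the other arrays.

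Other small alpha runs ranked high in the genome by their Sham level. Run alpha 10 (chr18:37159323-37159676) had medians of 1.40, 1.19, 0.96 and 1.50 in array order, above 93.5% of autosomal runs in the Sham mean. Run alpha 3 (chr18:37107648-37107929) had 1.31, 1.18, 0.74 and 1.26, above 92.9% of autosomal runs. Run alpha 6 (chr18:37121811-37122004) had 0.46, 0.93, 0.59 and 1.29, above 83.2%. The most upstream run, alpha 1 (chr18:37091756-37091982), had 0.35, 0.87, 0.87 and 1.25, above 80.9%. In these runs all 4 arrays were above 0. The Sham and TiO2-H values overlapped in alpha 10, alpha 3 and alpha 6, and in alpha 1 they met at 0.87. The single probe that the list annotates as promoter of Pcdha11, several kilobases upstream of its start (chr18:37166261-37166305), had 1.70, 1.24, 1.74 and 1.89.

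At the downstream end of the alpha cluster, the run where only Pcdhac1 is listed had the lowest Sham mean of the 13. Alpha 15 (chr18:37249454-37250153, 6 probes) had medians of -1.00, -0.11, -0.47 and -0.54 in array order. Of autosomal runs, 18.3% had a lower Sham mean, or 22.0% with readable input only. Cy5 was detected at 3, 5, 1 and 1 of the 6 probes of alpha 15 in array order. Its medians on Sham male and both TiO2-H arrays were therefore signals under detection, and its rank rests in part on them. One probe of alpha 15 (chr18:37249559-37249603) departed from its neighbours, with 1.32, 0.72, 0.64 and 1.30 and Cy5 detected on every array. Its upstream neighbour had -2.56, -0.35, -1.04 and -1.67, below 0 on every array. The Pcdhac2 run, alpha 16 (chr18:37302999-37304237, 11 probes), had medians of -0.68, -0.21, -0.11 and -0.08. Below its Sham mean lay 23.8% of autosomal runs, or 28.3% with readable input only. Cy5 was detected at 6, 6, 2 and 3 of its 11 probes in array order. Both probes that carry the Pcdhac2 symbol were below 0 on all 4 arrays, the promoter one (chr18:37303465-37303509) at -0.88, -0.13, -0.94 and -0.70 and the inside one (chr18:37303374-37303418) at -0.68, -0.36, -0.55 and -0.84. Their Cy5 was detected on both Sham arrays and on neither TiO2-H array, so the TiO2-H values are signals under detection. Farther along the run, the probe at chr18:37303618-37303662 was above 0 on all arrays, at 1.94, 0.34, 0.87 and 0.56. So were the probes at chr18:37303212-37303256, before those with the symbol, with 0.36, 0.27, 0.42 and 0.66, and at chr18:37303819-37303864, with 0.61, 0.62, 0.45 and 0.63. None of the other probes of the run was above 0 on every array. On the Sham arrays the Pcdhac2 island was thus mixed, low at both probes with the symbol and higher at probes on either side of them. The probe labelled inside lies before the one labelled promoter on the chromosome, whereas the placed start of Pcdha12 lies before its inside probe. Which of the Pcdhac2 probes is the promoter one is therefore uncertain.

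The beta probes, which RefSeq order places among the 22 beta genes, were above 0 on every array. The first (chr18:37650807-37650853) had 0.90, 1.27, 1.73 and 0.97 in array order, and the second (chr18:37675506-37675552) had 0.81, 1.15, 0.79 and 0.52. On both TiO2-H arrays their Cy5 was undetected.

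In the gamma cluster, run gamma 11, given to Pcdhga12, was the largest run with raised levels. The list's distances place the start of Pcdhga12 in none of the runs. Its 10 readable probes had medians of 0.34, 0.94, 0.55 and 0.93 in array order. Both probes with the Pcdhga12 symbol, annotated as inside the gene, were high on every array: the first (chr18:37926527-37926571) had 1.67, 1.26, 1.64 and 1.67, and the second (chr18:37927496-37927540) had 1.79, 1.42, 1.95 and 2.38. The Pcdhga11 probe in run gamma 8 (chr18:37913139-37913183), annotated as promoter, had 2.09, 1.73, 1.93 and 1.94. Run gamma 9 (chr18:37915240-37915951), at which the list's distances place the start of Pcdhga11, was lower, with medians of -0.37, -0.01, 0.40 and -0.60 over 5 readable probes. None of the probes in gamma 9 had Cy5 well above background on all 4 arrays, and 4 of 6 had it on none. The Pcdhga3 probe, upstream of its gene in run gamma 2 (chr18:37829497-37829541), had 1.72, 1.51, 2.15 and 2.20. Run gamma 3, at which the list's distances place the start of Pcdhga3, had 2 probes, neither with readable input nor with detected Cy5 on any array. Run gamma 1 (chr18:37803549-37804072) had 0.13, 0.26, 0.50 and 0.21, with Cy5 undetected on all arrays at 4 of its 5 probes.

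Run gamma 12 (chr18:37965542-37967176), the last of the window, had medians of -0.37, -0.39, 0.00 and -0.34 in the same order of arrays. In 10 of its 14 probes Cy5 was well above background on none of the arrays, against 35.7% of autosomal probes. The only probe of the run detected on all 4 arrays (chr18:37966191-37966235) had 0.28, 0.48, 0.47 and 0.66. Most low levels of gamma 12 were therefore signals under detection, not measured ratios.

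**Figure D4:**
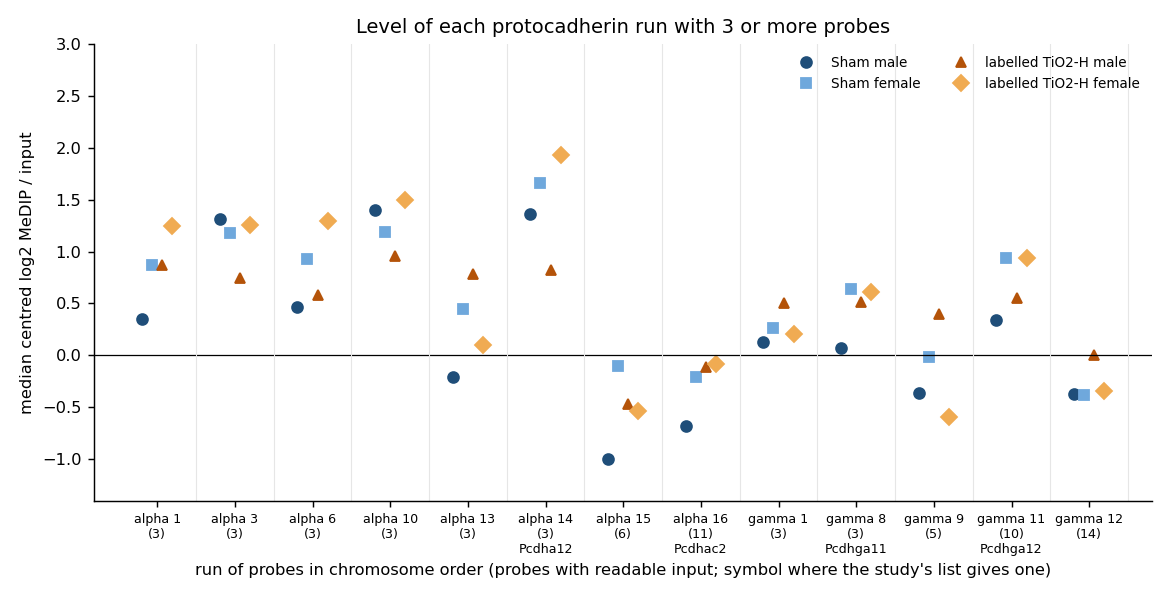
Median level (centred log2 MeDIP over input, y axis) of the readable probes in each of the 13 protocadherin runs with 3 or more probes, in chromosome order, with the number of readable probes in parentheses; each symbol is 1 array. Alpha 15 and alpha 16 lie below 0 on all 4 arrays, at -1.00 to -0.08, and alpha 14 (Pcdha12) reaches 1.93.

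Detection varied along the window as well. Cy5 was well above background on all 4 arrays for 24 protocadherin probes (24.0%, as on all autosomes at 24.0%) and on none for 39. Of the 24, 13 were among the 29 upstream alpha probes, 3 among the 17 beyond Pcdha12, 7 among the 38 upstream gamma probes and 1 among the 14 of gamma 12. Upstream gamma probes were thus detected about as often as the alpha probes beyond Pcdha12 (18.4% and 17.6%). All 24 were above the autosomal median on every array, as would follow in part from requiring a bright Cy5. Of the 20591 autosomal probes detected on all 4 arrays, 19137, 19138, 17721 and 19210 were above it in array order. Their median levels were 1.65, 1.09, 1.09 and 1.70, against 1.41, 1.31, 1.11 and 1.49 for the 24. Among probes detected this well, the protocadherin median was thus lower on the Sham male array and TiO2-H array F, and not raised throughout. Another 14 probes were detected on both Sham arrays and on neither TiO2-H array, and 0 were detected on a TiO2-H array without a Sham array. The same counts are not given here for autosomal probes, so they cannot be read as a trait of the window. The fewer detected probes on the TiO2-H arrays were a property of the whole arrays, as the shares given above show. Among all protocadherin probes with readable input, levels correlated between arrays with Pearson's r of 0.54 to 0.85, compared with 0.69 to 0.91 over autosomal probes, a description over probes that share DNA fragments.

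The exposed arrays were compared with the Sham arrays within each sex label. Both TiO2-H arrays went against their labels, so the arrays of each such pair differed in X-linked input signal as well as in exposure. The comparisons are called male and female after the labels only. The crossed pairs given further on had like X-linked input but sat on different slides. A probe was measured when its input was detected on both arrays and, on 1 array or both, its Cy5 was detected and the scanner's p-value for the log ratio stayed under 0.05. It rose at 1.5-fold or more and fell at 0.67-fold or less. Of 31 protocadherin probes measured in the male comparison (TiO2-H array M over Sham male), 1 rose and 14 fell (45.2%), where 3.14% and 56.0% of 34782 measured autosomal probes did. In the female comparison (TiO2-H array F over Sham female), 7 of 45 rose (15.6%) and 13 fell (28.9%), where 28.8% and 36.3% of 41116 autosomal probes did. These counts moved with the processing. In place of the 14 falls of the male comparison, 1 was counted with normexp background correction and 4 with loess scaling. In place of the 13 falls of the female comparison, 24 were counted without centring, 29 with a common spread and 22 with quantile scaling. With 1 array per group these counts carry no test.

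The 2 Sham arrays, which differed in sex label and slide, also differed past the fold limits at many probes. Between Sham female and Sham male, which received no particles, 20 of 49 measured protocadherin probes were 1.5-fold or more higher in the female and 7 were at 0.67-fold or less, where 32.0% and 33.0% of autosomal probes were. In all, 55.1% of measured protocadherin probes differed past these limits between the Sham arrays, compared with 48.4% for the male labels and 44.4% for the female labels. Over autosomal probes these shares were 65.0%, 59.2% and 65.1%. Between the 2 TiO2-H arrays 7 of 20 measured protocadherin probes differed (35.0%), against 64.7% of autosomal probes. The spread between pools of one group cannot be read from either pair. Crossing both sex labels, which sets TiO2-H array F against Sham male, 4 of 34 rose and 6 fell, where 10.3% and 22.1% of autosomal probes did. In the other crossed pair 2 of 41 rose and 20 fell, where 3.36% and 46.2% of autosomal probes did. In these crossed pairs 29.4% and 53.7% of measured protocadherin probes were past the limits, against 32.4% and 49.6% of autosomal probes.

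Most falls rested on a MeDIP signal that was not detected on the exposed array. In the female comparison all 13 falls were of this kind, and among the 23 probes whose Cy5 both arrays detected 6 rose and 0 fell, where 53.7% and 7.21% of such autosomal probes did. In the male comparison 8 of the 14 falls were of this kind, and among 19 probes detected on both arrays 0 rose and 6 fell, where 4.03% and 58.4% of such autosomal probes did. Among autosomal falls, 13404 of 14942 in the female comparison had Cy5 detected on 1 array only, and 8812 of 19482 in the male one. Falls of this kind were thus common across the arrays and not particular to the protocadherin probes. The 1 rise in the male comparison was the first beta probe, at 1.78-fold, whose Cy5 was undetected on TiO2-H array M.

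**Figure D5:**
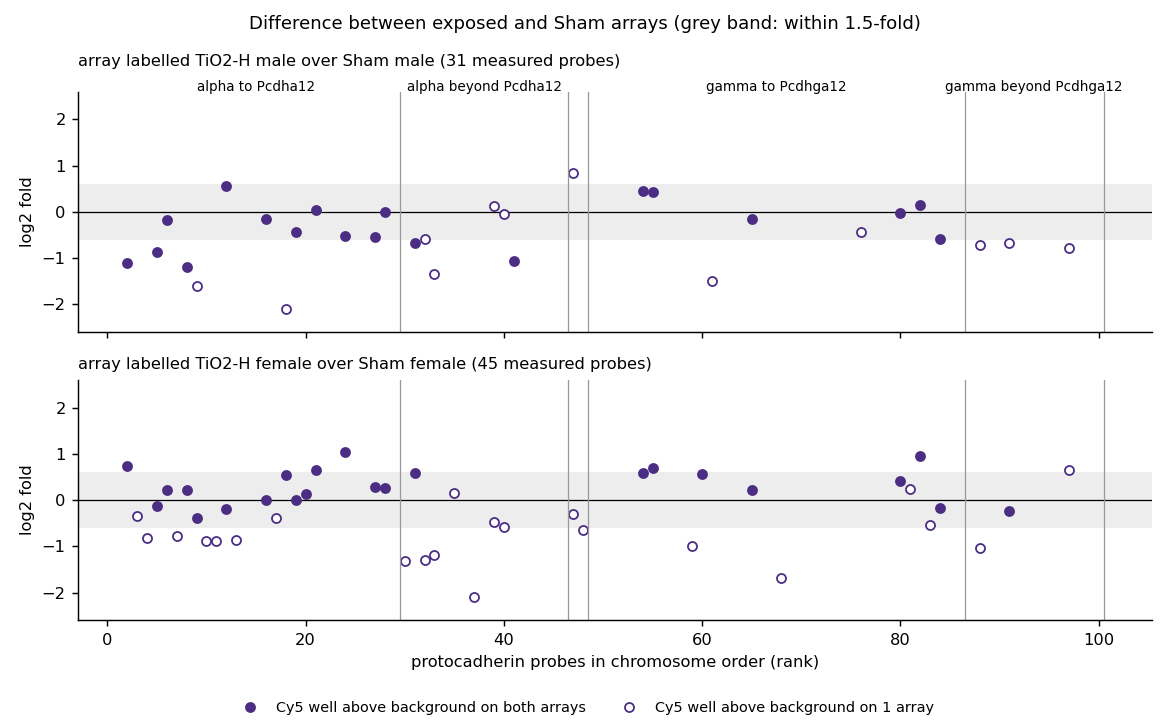
Log2 fold of the TiO2-H array over the Sham array of the same sex label (y axis) for the protocadherin probes measured in each comparison, in chromosome order (x axis, rank); the grey band spans folds between 0.67 and 1.5, and open points had Cy5 well above background on 1 of the 2 arrays only. Every point below the band in the lower panel is open, and 6 of the 14 below it in the upper panel are filled.

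Among the probes detected on both arrays, those past the limits belonged to several runs. The probe of alpha 13 at the Pcdha12 start (chr18:37179910-37179954) had 1.41, 0.48, 0.88 and 1.52 in array order and was 2.05-fold higher in the female comparison. This was the largest rise among the protocadherin probes measured, and Sham male was nearly as high as TiO2-H array F. The second Pcdhga12 probe rose 1.94-fold in the female comparison and was at 1.12-fold in the male one. The Pcdhga3 probe rose 1.61-fold and its neighbour (chr18:37829317-37829361) 1.51-fold in the female comparison, and both were higher in the male one by 1.35-fold and 1.37-fold without passing the limit. The Pcdha11 probe rose 1.57-fold in the female comparison and was at 1.03-fold in the male one. Among the 24 probes with Cy5 detected on all 4 arrays, both TiO2-H levels lay above both Sham levels at 7 and below both at 2, where this held for 9.59% and 6.70% of 20591 such autosomal probes. The gaps could be small, as at the Pcdha11 probe with 1.74 against 1.70.

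In the male comparison the falls among probes detected on both arrays were at probes with levels of 1.32 to 3.01 on the Sham male array. The probe of alpha 4 at chr18:37114129-37114173 had 2.71, 2.14, 1.52 and 2.37, a fold of 0.44. The middle probe of alpha 1 (chr18:37091821-37091865) had 3.01, 1.51, 1.92 and 2.24, a fold of 0.47, and that of alpha 16 at chr18:37303618-37303662 was at 0.48. The first probe of alpha 3 (chr18:37107648-37107692) had 1.61, 1.39, 0.74 and 1.26, a fold of 0.55. At the first 3 of these probes TiO2-H array F lay between both Sham arrays, and at the alpha 3 probe below both. The largest fall that kept its direction with the undetected signal raised to the detection floor was at chr18:37159323-37159367 in alpha 10, with 2.82, 1.19, 0.72 and 1.74, a fold of 0.23 as measured and at least 3.85-fold lower. The neighbouring probe of alpha 4 (chr18:37114254-37114301) had 1.70, 1.51, 0.10 and 1.11, a fold of 0.33 as measured and at least 2.90-fold lower.

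Few runs had 3 measured probes. In the male comparison 2 of 4 such protocadherin runs were past the limit downward and 0 upward, where 60.9% and 0.594% of 5896 autosomal runs were. In the female comparison 1 of 6 fell and 0 rose, where 32.7% and 17.1% of 7182 autosomal runs did. Alpha 15, at Pcdhac1, was past the limit in both as measured, with a median log2 fold of -0.68 (male) and -1.19 (female). Cy5 was undetected on the TiO2-H array at 2 of its 3 probes measured in the male comparison and 4 of its 5 in the female one, and raising these to the floor turned the median to 0.94 and 0.58, so neither value is a bound on a fall. With loess scaling it was -0.12 and -0.44, inside the limits, and with crossed labels it was -0.03 for TiO2-H array F over Sham male and -1.62 for TiO2-H array M over Sham female. Gamma 12 fell in the male comparison by 0.72 on the log2 scale with all 3 measured probes undetected on the exposed array, and was at -0.24 in the female one. With normexp background correction the male medians of alpha 15 and gamma 12 turned to 0.078 and 0.018. The Pcdhac2 run was at -0.05 and -0.57, and the Pcdhga12 run at -0.23 and 0.24, none past the limits.

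Over both sex labels, the 2 TiO2-H arrays were set against the 2 Sham arrays with limma. Of 43 protocadherin probes tested, 0 were called at an adjusted p of 0.05 and 0 had an unadjusted p under 0.05, while 37 of 39861 autosomal probes were called (0.0928%), all lower. The smallest protocadherin p was 0.0547 (limma, adjusted p = 0.947), for the probe of alpha 15 at chr18:37249859-37249905, with a log2 difference of -1.27. Its levels were -0.41, 0.75, -1.75 and -0.44 in array order, with both exposed values under both Sham values and TiO2-H array F next to Sham male. Cy5 was detected on neither TiO2-H array. The median difference over the 43 probes was -0.12, against -0.13 over all probes tested, and 27 of the 43 were lower on the TiO2-H arrays. The direction changed with the Cy5 filter, which let in 14 probes detected on both Sham arrays only. Without that filter the median was 0.06 and 37 of 88 were lower, against a median of -0.04 over all probes tested. With Cy5 detected on all 4 arrays it was 0.16 and 9 of 24 were lower, against -0.01. A difference missed here is not shown to be absent, since 2 arrays a side leave few degrees of freedom. The variable exons are similar in sequence within a cluster, and whether probes also bound DNA of related exons was not tested.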

How the data were processed

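DNA methylation at CpG islands was measured on 4 arrays with 2 colours, MeDIP DNA in Cy5 and input DNA in Cy3, without a dye swap. Per the file headers, the authors quantified the scans in Agilent Feature Extraction 10.7.3.1, and positions follow mm9. The deposited processed signals are linear intensity values, background-subtracted and scaled per dye, and the deposited log10 ratio of Cy5 over Cy3 comes with a deposited p-value of the scanner's single-spot error model. A probe was called well above background by the scanner's own flag. The series table equalled the log10 ratios and was not centred.

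Levels were log2 of processed Cy5 over Cy3, centred on each array's autosomal median. Of the 100 protocadherin probes, 0 were saturated and 0 carried an outlier flag. Wilson intervals were at 95%. Fold limits followed the study's methods (1.5 and 0.67), regions needed 3 measured probes with gaps of at most 1000 bp, and an undetected signal was raised to the lowest Cy5 among detected probes of the array before a bound was given. limma 3.58.1 (R 4.3.3) was fitted to autosomal probes with Cy3 detected on 4 arrays and Cy5 on at least 2, with Benjamini-Hochberg adjustment, and was tested on simulated data. Named runs were the 6 highest and 6 lowest of those with 3 or more probes by Sham mean, the first and last of each stretch, runs past the limits and runs with a symbol. Single probes within those runs were picked after their values were seen. The members, lists and tests were chosen with earlier results of these data known. Gene order came from RefSeq. Promoter sequences of these genes were not used here. Alternatives were other background correction, centring, scaling, filters, region settings, crossed labels, a sex block and each array left out.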

Additional observations from a re-analysis of the deposited data

Results flagged for a closer look

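The middle probe of run alpha 1 (chr18:37091821-37091865) passed the fold limits in opposite directions, with a log2 fold of -1.10 for the male labels and 0.73 for the female labels. All 4 arrays detected its Cy5. The probe of gamma 12 at chr18:37966805-37966849 did so with -0.79 and 0.65, and Cy5 was not well above background on either TiO2-H array. With 1 array per group, the differences between the comparisons were not tested.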

How the results depend on the processing

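Between 58.0% and 77.0% of protocadherin probes were above the autosomal median under normexp background correction, against the rest of chromosome 18 and with readable input only. Counting only probes with detected Cy5, which selects for bright ratios, gave 82.2%, 86.4%, 100% and 96.6% in array order. In the male comparison (1 rise, 14 falls, 2 regions), rises numbered 0 with normexp, 2 without centring, 4 with a common spread, 4 with quantile scaling, 0 with Cy5 detected on both arrays and 4 with crossed labels, and falls numbered 1 with normexp, 4 with loess, 6 with Cy5 detected on both arrays and 6 with crossed labels. Regions past the limits were 0 with normexp, loess, detection on both arrays or crossed labels, and 4 with at least 2 measured probes. With normexp, the log2 fold of alpha 15 turned to 0.078 and that of gamma 12 to 0.018. In the female comparison (7 rises, 13 falls, 1 region), rises numbered 3 with normexp, 0 without centring, and 2 with a common spread, quantile scaling or crossed labels, and falls numbered 24 without centring, 29 with a common spread, 22 with quantile scaling, 0 with detection on both arrays and 20 with crossed labels. Regions were 4 without centring or with a common spread, 2 with quantile scaling, loess or no p filter, 0 with detection on both arrays, 3 with at least 2 measured probes and 5 with crossed labels. The cause was not tested. limma called 0 protocadherin probes under every alternative, with a sex label block and with each array left out in turn included, and 0 to 4 at an unadjusted p under 0.05. Over all autosomal probes its calls went from 37 to between 0 and 643. Fewer probes were detected in Cy5 on the TiO2-H arrays than on the Sham arrays, which limits how far a fall could be measured.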
